A study of Sus scrofa with 12 samples.

Results

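A set of 10 symbols of fatty acid uptake and binding was looked up in the Semimembranosus muscle transcriptome of 12 pigs, and 9 of the 10 had an Ensembl gene identifier by the pig gene names used here: FABP3, FABP4, FABP5, LPL, SLC27A1, SLC27A4, ACSL1, ACSL3 and ANGPTL4. CD36 had none and was not analysed here. The genes were listed by symbol, with earlier results of these data known. The count table listed 25880 genes, of which 20341 had at least 1 count. All 9 were among the 14262 genes that passed the filter on low counts, and the smallest deposited count of any of them in any pig was 202.

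The samples were 12 purebred Italian Large White pigs, with no treatment or transgene, kept in 1 environment on 1 diet and slaughtered at 229 to 249 days of age. The 6 high IMF pigs (pigs 1 to 6, 234 to 244 days) and the 6 low IMF pigs (pigs 7 to 12, 229 to 249 days) were picked by the study from opposite ends of intramuscular fat (IMF) content in a larger test population, so intermediate fat contents are not represented. Each group was labelled as 3 gilts and 3 barrows, the latter being castrated males. Each library was 1 piece of whole muscle, in which muscle fibres, fat cells, vessels and immune cells were mixed, so fewer cells of a type and less RNA per cell cannot be told apart. The question put to these genes was whether their levels differed between muscle with much and with little intramuscular fat.

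Library totals were 131048805 to 154840282 counts in the high IMF group and 133915596 to 178013997 in the low IMF group. They sum to more than the filtered reads given in the study's text, so a count is not equated here with a read or a read pair. The defining muscle genes were abundant, with ACTA1, the skeletal muscle actin, at 14492 to 33957 CPM over the 12 pigs (CPM being counts scaled to library size after TMM normalisation). Counts of 2 Y chromosome genes, EIF1AY and KDM5D, went against the labelled sex in 6 of the 12 pigs, namely pigs 3 and 5 of the high IMF group and pigs 7, 8, 9 and 10 of the low IMF group. Their summed count was either 6 or fewer or at least 3734, so no pig lay between. It was at least 3734 in pigs 3, 4 and 6 of the high IMF group and pigs 9, 10 and 11 of the low IMF group. Whether the IMF labels of the 6 mismatched pigs are affected as well was not tested, so each log2FC given here compares labelled groups. A match does not show that a pig's label is right, because mixed labels would also match in some pigs. The values of the 9 genes, and of the lists whose medians are given, are also stated for the 6 pigs whose Y counts matched their label. These 6 were 4 high IMF pigs (1, 2, 4 and 6) and 2 low IMF pigs (11 and 12), so each such value leans on single pigs. Pig 12 was the highest of all pigs for LPL, FABP4 and ACSL1.

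Long-chain fatty acids reach a muscle fibre or fat cell in steps. Lipoprotein lipase on the capillary wall frees them from circulating triglycerides, membrane proteins help them across, small cytoplasmic binding proteins carry them, and acyl-CoA synthetases attach coenzyme A so that they can be oxidised or stored. In muscle the heart-type binding protein FABP3 is a product of the fibres, whereas FABP4 is best known from fat cells and FABP5 is made in several cell types, capillary endothelium among them. Intramuscular fat is the triglyceride held in fat cells between the fibres and in droplets inside them.

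The 3 binding protein genes are close relatives. Over aligned coding bases FABP3 and FABP4 were 66.1% identical, FABP4 and FABP5 60.9%, and FABP3 and FABP5 57.9%. In the RefSeq annotation of Sscrofa11.1, FABP4 (chr4:55096400-55101209, plus strand) and FABP5 (chr4:55277831-55282585, minus strand) lay 176621 bases apart, and FABP3 lay on another chromosome (chr6:87943003-87950708, minus strand). Each of the 3 had 4 exons. No other annotated gene overlapped any of the 9 genes. The longest run of bases shared by transcripts of any pair of them was 24, between SLC27A1 and SLC27A4, against reads of 100 bases.

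Levels between genes were compared as CPM per kilobase of RefSeq transcript. FABP3 was the highest, at 241 ± 86.4 CPM per kilobase (SD, n = 12), and its lowest pig (125) was above the highest pig of the next gene (114). Per kilobase of coding sequence the separation was lost, with the lowest pig of FABP3 at 139 and the highest pigs of ACSL1 and LPL at 171 and 147. ACSL1 (65.0 ± 23.9), LPL (49.9 ± 13.6), FABP5 (45.9 ± 19.6) and FABP4 (24.0 ± 9.23) followed, and the ranges of neighbours in this order overlapped. ACSL3 (14.7 ± 2.91) overlapped FABP4 but lay above SLC27A1 (5.81 ± 0.856) in every pig. ANGPTL4 (4.38 ± 3.85) overlapped SLC27A1, and SLC27A4 was the lowest at 0.385 ± 0.0796, below every other gene in every pig. Per kilobase of coding sequence ACSL1 and LPL changed places, and per kilobase of the longest transcript SLC27A1 and ANGPTL4 did. The FABP3 model holds 402 coding bases of 447, so little untranslated sequence enters its length.

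**Figure D1:**
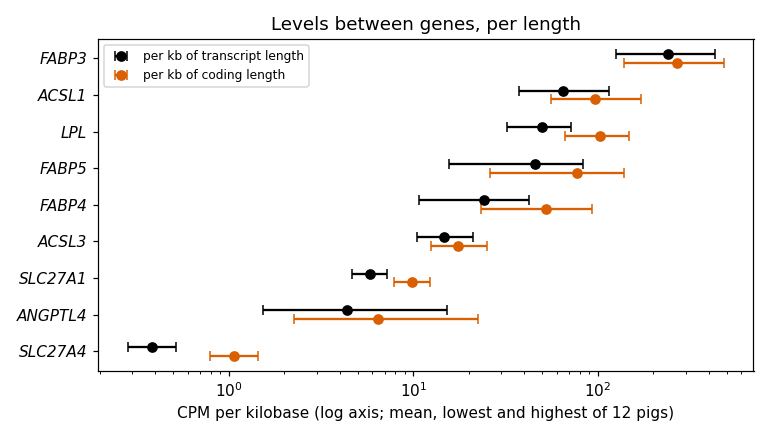
CPM per kilobase on a log axis for the 9 genes, as the mean of 12 pigs with the lowest and highest pig, by transcript length (black) and coding length (orange). FABP3 has the highest mean and SLC27A4 the lowest on both scales, and the range of FABP3 overlaps those of ACSL1 and LPL by coding length.

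Between the groups, none of the 9 genes was called. With edgeR's quasi-likelihood test, adjusted over 14262 genes, a gene was called at an adjusted p of 0.05 or less and an absolute log2FC of 0.58 or more, log2FC being low over high IMF. This rule called 0 of the 9 and 0 of all genes tested (0%). At an unadjusted p of 0.05 or less it was 0 of the 9, where 10.4% of all genes (1486) passed. None of the 9 had groups without overlap, against 0.659% of all genes (94). The DESeq2 Wald test on all genes with a count called 65 genes (0.39% of 16685 with an adjusted p) and again 0 of the 9. Of the 9, 5 were higher in low IMF and 4 in high IMF, and their median log2FC was 0.06 against -0.01 over all genes tested, 48.4% of which were higher in low IMF. That median of the 9 was -0.07 without pig 12 and 0.18 without pig 9. In the 6 pigs whose Y counts matched their label, 7 of the 9 were higher in low IMF and none was called, with ACSL1 at a log2FC of 0.54, SLC27A1 at 0.26, SLC27A4 at 0.01, ACSL3 at -0.03 and ANGPTL4 at -1.27, and the median of the 9 was 0.26. This alternative was chosen after the data were seen, and the values of the other 4 genes are given with them.

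**Figure D2:**
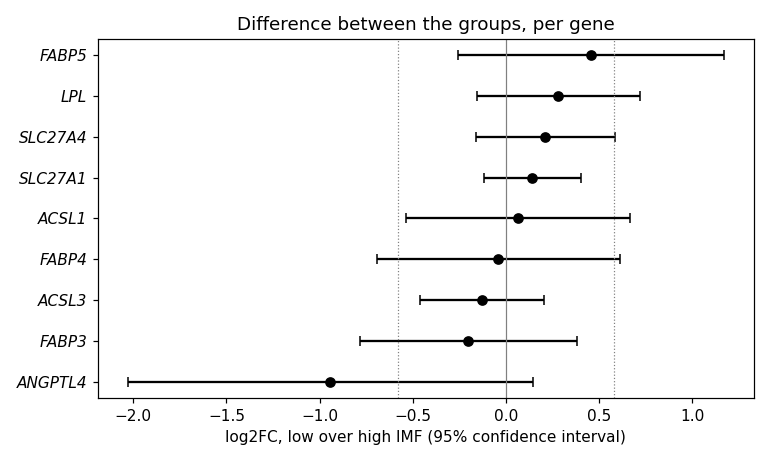
Log2FC of each gene, low over high IMF, with its 95% confidence interval from the quasi-likelihood fit (n = 6 per group). All 9 intervals include 0, and the dotted lines mark the fold threshold of 0.58 on either side.

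LPL (ENSSSCG00000040631, chr14:4104761-4134964), the lipase that frees fatty acids from lipoprotein triglycerides, had 106, 129 and 182 CPM as the lowest, median and highest of the high IMF pigs, and 94.98, 184 and 212 CPM in the low IMF pigs. The low IMF pigs fell into 4 at 183 to 212 CPM and 2, pigs 9 and 10, at 104 and 94.98, so that the group held both the highest and the lowest pigs. Its log2FC was 0.28 ± 0.20 (SE), with a 95% interval of -0.15 to 0.72 (quasi-likelihood adjusted p = 0.651). In the high IMF group pig 5, at 182 CPM, stood apart from the other 5 pigs at 106 to 131. In the 6 pigs whose Y counts matched their label the log2FC of LPL was 0.73 (adjusted p = 0.998).

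ANGPTL4 (ENSSSCG00000013599, chr2:70905767-70912892), a secreted inhibitor of lipoprotein lipase that is induced by fasting and by fatty acids, had the largest difference and the largest spread of the 9. Its levels were 2.79, 7.61 and 27.7 CPM (lowest, median and highest) in high IMF and 2.88, 4.93 and 8.76 CPM in low IMF. The low IMF pigs all lay within the range of the high IMF pigs, of which 2 lay above every low IMF pig, pig 6 at 27.7 and pig 1 at 13.5 CPM. The log2FC was -0.94 ± 0.51 (SE), the interval -2.03 to 0.14 and the quasi-likelihood adjusted p 0.529. Without pig 6 the log2FC was -0.37. The spread within groups, 1.00 on the log2 scale, was at the 92.3rd percentile of all genes tested.

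Pig 6 also had the highest summed level of 9 macrophage markers, 190 CPM, where the high IMF pigs ranged from 81.0 to 190 and the low IMF pigs from 90.4 to 159 CPM. MSR1, a macrophage scavenger receptor, had 5.81 CPM in pig 6 and 0.726 to 1.91 in the other high IMF pigs. All 9 macrophage markers correlated positively with ANGPTL4 over the 12 pigs, with a median Pearson's r of 0.64 that became 0.38 without the 2 pigs farthest from the median of ANGPTL4. The part of these cells in the ANGPTL4 values was not tested. Of the 9 macrophage markers, 7 were higher in high IMF, 2 of them, AIF1 (log2FC -0.46, unadjusted p = 0.0413 in the quasi-likelihood fit) and MSR1 (log2FC -0.96, unadjusted p = 0.0491), at an unadjusted p of 0.05 or less, against 10.4% of all genes, and none was called. The median log2FC of the macrophage markers was -0.27, and it was -0.04 without pig 6, -0.44 without pig 7 and -0.56 in the 6 pigs whose Y counts matched their label.

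The next step in the pathway is passage through the cell membrane. SLC27A1 (ENSSSCG00000013879, chr2:60203374-60235689), the insulin-responsive transport protein of muscle and fat, had 15.4, 17.6 and 22.7 CPM in high IMF and 17.5, 19.2 and 23.8 CPM in low IMF (lowest, median and highest), and the groups overlapped over most of their range. Its log2FC was 0.14 ± 0.12 (SE), with an interval of -0.12 to 0.40 that excluded the fold threshold in both directions (quasi-likelihood adjusted p = 0.713). Its spread within groups, 0.20 on the log2 scale, was at the 22.9th percentile of all genes.

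SLC27A4 (ENSSSCG00000005648, chr1:268773792-268788208), a relative 70.1% identical in coding sequence that also has acyl-CoA synthetase activity, was present at 1.602, 2.03 and 2.34 CPM in high IMF and 1.65, 2.36 and 2.93 CPM in low IMF. Pigs 7, 8 and 12 of the low IMF group lay above all high IMF pigs, and pig 11 lay near the lowest. The log2FC was 0.21 ± 0.17 (SE), the interval -0.16 to 0.58 and the quasi-likelihood adjusted p 0.696.

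The binding protein genes came next in the order of the pathway, and each is given with its own values. FABP3 (ENSSSCG00000036883), which carries fatty acids in muscle fibres, had 61.0, 119 and 193 CPM in high IMF and 56.0, 102 and 148 CPM in low IMF. The groups overlapped, and pig 6 of the high IMF group lay above every other pig. The log2FC was -0.20 ± 0.27 (SE), with an interval of -0.79 to 0.38 (quasi-likelihood adjusted p = 0.831), and it was 0.01 without pig 6 and 0.0076 in the 6 pigs whose Y counts matched their label.

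FABP4 (ENSSSCG00000040681), the fat cell binding protein, was at 12.2, 21.0 and 28.5 CPM in high IMF and 9.35, 19.7 and 37.1 CPM in low IMF. The highest and the lowest of all 12 pigs, pigs 12 and 10, were both low IMF pigs. The log2FC of FABP4 was -0.04 ± 0.30 (SE), the interval -0.69 to 0.61 and the quasi-likelihood adjusted p 0.976. Its direction was not stable, since it was 0.65 in the 6 pigs whose Y counts matched their label (adjusted p = 0.998) and ran from -0.28 to 0.11 as single pigs were left out.

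FABP5 (ENSSSCG00000006153), the binding protein first described in skin, had 10.6, 29.1 and 43.7 CPM in high IMF and 21.1, 34.9 and 56.4 CPM in low IMF. The 2 lowest pigs, 6 and 1, were high IMF pigs and the highest, pig 7, was a low IMF pig, with the others intermixed. Its log2FC was 0.46 ± 0.33 (SE), the largest of the 5 that were higher in low IMF, with an interval of -0.26 to 1.17 (quasi-likelihood adjusted p = 0.654), and it was 0.29 without pig 6 and 1.03 in the 6 pigs whose Y counts matched their label (adjusted p = 0.998).

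The makeup of the binding proteins varied over the pigs of both groups. Of the summed CPM of the 3 genes, FABP3 made up 69.5 ± 9.69% in high IMF and 63.5 ± 7.55% in low IMF (SD, n = 6 each), FABP4 13.1 ± 1.52% and 13.6 ± 6.05%, and FABP5 17.3 ± 8.40% and 22.8 ± 3.70%. Pig 6 had the highest share of FABP3, 83.3%, and the lowest share of FABP5, 4.59%. Pig 7 had the lowest share of FABP4, 5.92%, and pig 8 the highest, 19.8%. These are shares of counts and not of molecules, since the 3 transcripts differ in length.

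**Figure D3:**
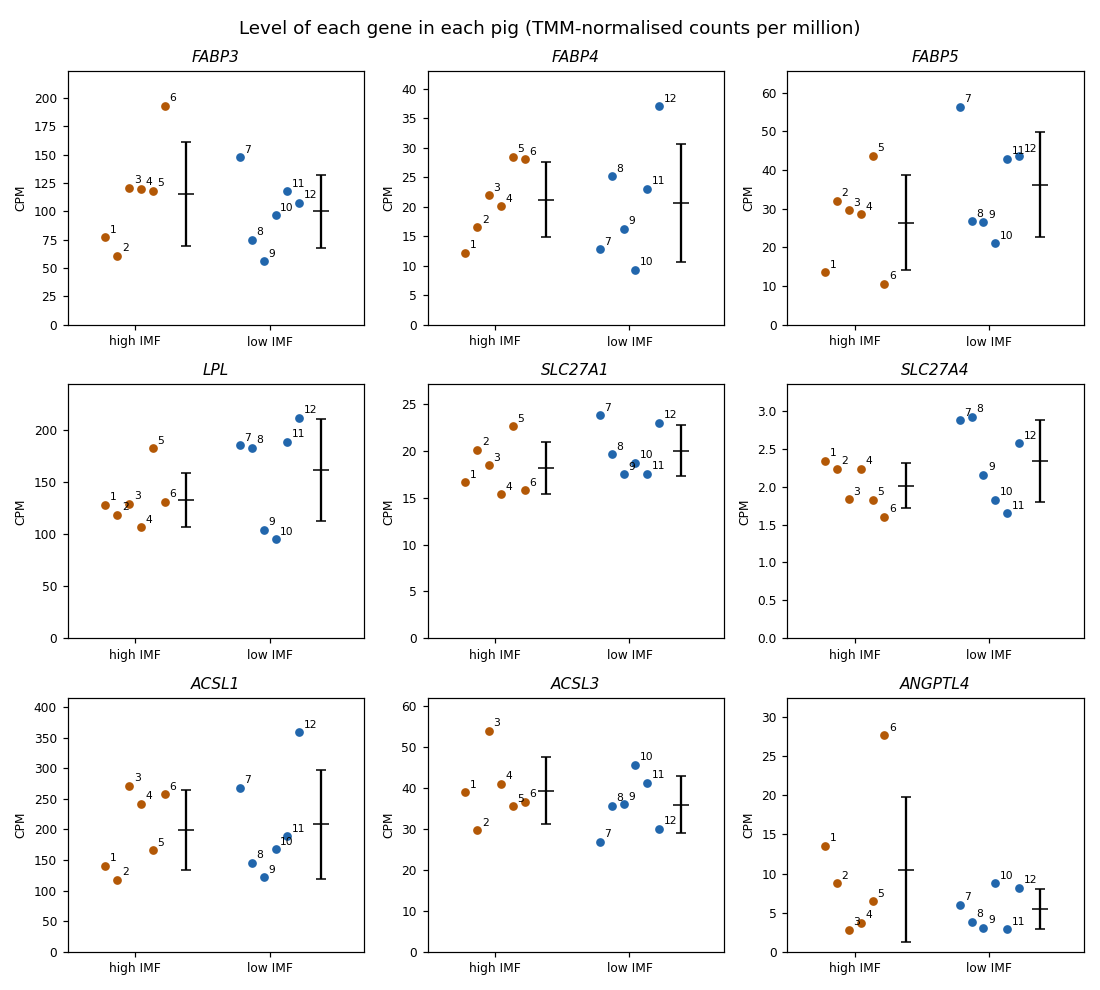
CPM of each gene in each pig, with the pig's number beside its point, and the mean and SD of each group of 6 as a bar. The groups overlap for all 9 genes, and pig 6 stands highest for FABP3 and ANGPTL4 and lowest for FABP5.

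Among the acyl-CoA synthetases, ACSL1 (ENSSSCG00000015784, chr15:45866858-45936327), the main long-chain form of muscle and fat, had 117, 204 and 271 CPM in high IMF and 122, 178 and 359 CPM in low IMF. Its highest pig, pig 12, was a low IMF pig, and the groups otherwise shared 1 range. The log2FC was 0.06 ± 0.28 (SE), with an interval of -0.53 to 0.66 (quasi-likelihood adjusted p = 0.961), and it was -0.15 without pig 12. ACSL3 (ENSSSCG00000016223, chr15:124741986-124816955), the form found on lipid droplets and the endoplasmic reticulum, had 29.7, 37.8 and 54.1 CPM in high IMF and 27.0, 35.9 and 45.8 CPM in low IMF. The log2FC of ACSL3 was -0.13 ± 0.15 (SE), the interval -0.46 to 0.20, which excluded the fold threshold in both directions, and the quasi-likelihood adjusted p 0.805. It was -0.02 without pig 3 and -0.21 without pig 10.

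Genes most like each member were taken as the 3 named genes, of 11837 tested with a symbol, with the highest Pearson's r of log2 CPM over the 12 pigs. These values are descriptions picked as the highest of many, so no p is given. FABP4 was most like ADIRF, an adipogenesis regulatory factor (r = 0.94, Spearman's rho = 0.91), ADIPOQ, the fat cell hormone adiponectin (r = 0.90, rho = 0.83), and CIDEC, a lipid droplet protein of fat cells (r = 0.87, rho = 0.81). Without the 2 pigs farthest from the median of FABP4 these r were 0.89, 0.84 and 0.81. ADIPOQ ranged from 19.9 to 78.3 CPM in high IMF and from 8.40 to 76.9 CPM in low IMF, with a log2FC of -0.15 ± 0.54 (SE, quasi-likelihood adjusted p = 0.950). The lowest pig of both FABP4 and ADIPOQ was pig 10.

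FABP3 was most like LAMP2, a lysosomal membrane protein (r = 0.94, rho = 0.92), YARS2, the mitochondrial tyrosyl-tRNA synthetase (r = 0.94, rho = 0.88), and MDH1, the cytosolic malate dehydrogenase (r = 0.94, rho = 0.94). FABP5 was most like CYYR1 (r = 0.95, rho = 0.92), GNG11, a G protein gamma subunit (r = 0.95, rho = 0.92), and TDRD10 (r = 0.94, rho = 0.93). None of the 9 nearest genes was shared between the 3 binding proteins. Between the 3 themselves r was 0.31 for FABP3 with FABP4, 0.19 for FABP4 with FABP5 and -0.00074 for FABP3 with FABP5.

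**Figure D4:**
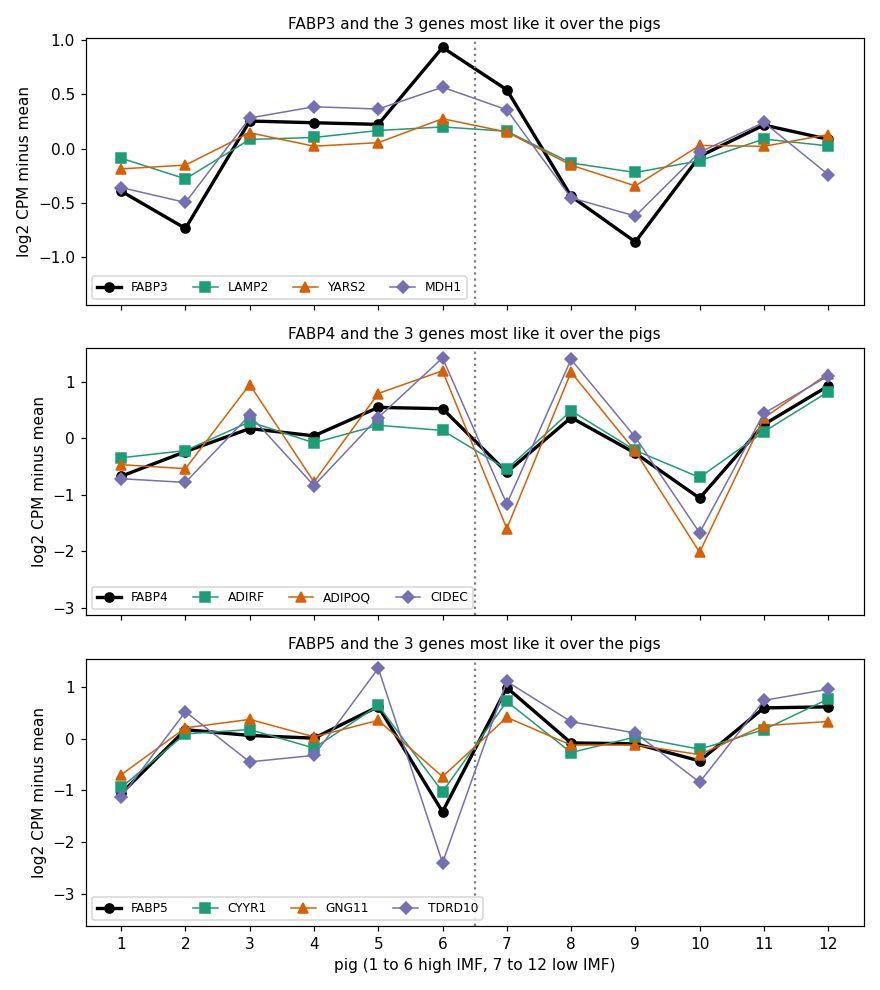
Log2 CPM of FABP3, FABP4 and FABP5 (black) and of the 3 genes most like each, minus each gene's mean over the 12 pigs, by pig, with a dotted line between the groups. The 3 binding protein genes are lowest in different pigs, FABP4 in pig 10, FABP5 in pig 6 and FABP3 in pig 9.

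For the other members, LPL was most like FIGNL1 (r = 0.87), SMPDL3A (r = 0.86) and PRKDC (r = 0.84), SLC27A1 like GPR153 (r = 0.89), FLT1, a receptor for vascular growth factors (r = 0.87), and NUP85 (r = 0.86), and SLC27A4 like DRG2 (r = 0.97), JOSD2 (r = 0.92) and CLPB (r = 0.90). ACSL1 was most like COQ10A, a coenzyme Q binding protein of mitochondria (r = 0.93), TNIP3 (r = 0.88) and ATG3, an autophagy enzyme (r = 0.84). ACSL3 was most like TNPO1, HCFC2 and C16orf87 (each r = 0.93), and ANGPTL4 like GIMAP8 (r = 0.91), SGK3 (r = 0.90) and CHSY3 (r = 0.90). Values of r for these 6 members without the 2 pigs farthest from the member's median lay between 0.77 and 0.95.

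Of the 36 pairs among the 9 genes, FABP3 with ACSL1 had the highest r, 0.78 (rho = 0.78). This r was 0.86 within high IMF, 0.76 within low IMF and 0.63 without the 2 pigs farthest from the median of FABP3. FABP5 with SLC27A1 followed, with r = 0.73 (rho = 0.75) over all pigs, 0.72 within high IMF and 0.64 within low IMF. The lowest was FABP5 with ANGPTL4, with r = -0.60, which was 0.13 without the 2 pigs farthest from the median of FABP5 and so rested on those pigs. These pairs were looked at after the values were seen, and all share the same 12 libraries.

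Then 7 lists of cell type and fibre markers were set beside the 9 genes by the median r of their members over the 12 pigs. FABP4 had its highest median with the 14 adipocyte markers, 0.70, of which 11 were positive. FABP5 had its highest with the 7 endothelial markers, 0.65, all positive. FABP3 had its highest with the 6 slow fibre markers, 0.54, all positive, and 0.51 with the 9 macrophage markers. Without the 2 pigs farthest from each gene's median these were 0.67, 0.58, 0.61 and 0.53. The median r of each of these genes with all genes tested lay between -0.01 and 0.02.

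LPL had its highest median with the adipocyte markers, 0.47, but without the 2 farthest pigs this was 0.41 and that with the slow fibre markers, 0.10 over all pigs, was 0.47. SLC27A1 had its highest with the endothelial markers, 0.53, which was 0.23 without the 2 farthest pigs. FABP5 with the fast fibre markers fell from a median of 0.55 to 0.16 and FABP5 with the macrophage markers went from -0.40 to 0.53 in the same way. FABP4 had negative medians with the fast fibre markers, -0.47, and with the skeletal muscle markers, -0.56, which were -0.49 and -0.32 without the 2 farthest pigs. The medians of SLC27A4, ACSL1 and ACSL3 also moved without those pigs, ACSL1 with the slow fibre markers from 0.09 to 0.73, SLC27A4 with the macrophage markers from -0.04 to 0.72 and ACSL3 with the fast fibre markers from 0.13 to 0.47.

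**Figure D5:**
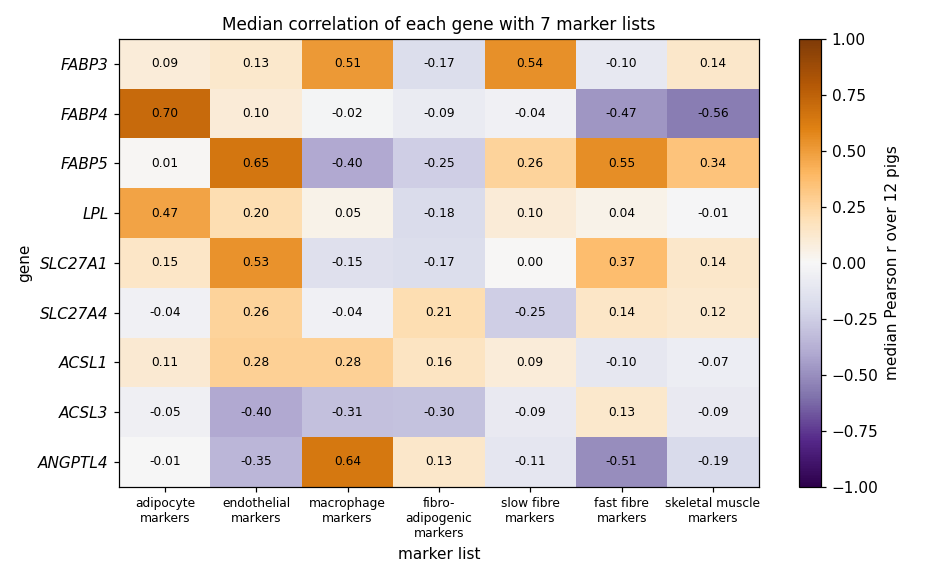
Median Pearson's r of each gene's log2 CPM with the genes of 7 marker lists over 12 pigs, from -1 (purple) to 1 (orange). FABP4 is highest with adipocyte markers (0.70), FABP5 with endothelial markers (0.65), ANGPTL4 with macrophage markers (0.64) and FABP3 with slow fibre markers (0.54).

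None of the marker lists held a called gene in the quasi-likelihood test. No adipocyte marker was called of 14 tested, 10 were higher in low IMF and 4 in high IMF, and their median log2FC was 0.15. That median was -0.05 without pig 8, 0.24 without pig 7 and 0.68 in the 6 pigs whose Y counts matched their label. Their summed level was 1241 to 1533 CPM in high IMF and 1093 to 1535 CPM in low IMF, most of it GPD1 at 712 CPM or more, which muscle fibres also express. No endothelial marker was called of 7 tested, with 5 higher in low IMF and 2 in high IMF. The largest difference was that of CDH5, the cadherin of endothelial junctions (log2FC 0.55, quasi-likelihood adjusted p = 0.383). It was at 16.5 to 31.1 CPM in high IMF and 25.7 to 41.5 CPM in low IMF. TIE1 and PECAM1 had smaller log2FC of 0.26 and 0.16 (quasi-likelihood adjusted p = 0.620 and 0.695). EGFL7 was listed at 0 in every pig. Endothelial markers summed to 111 to 151 CPM in high IMF and 116 to 185 CPM in low IMF.

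Slow fibre markers gave 0 called of 6, 5 of them higher in high IMF, and summed to 1941 to 5054 CPM in high IMF and 1393 to 5975 CPM in low IMF. Their median log2FC was -0.17, and it was 0.0034 without pig 12, -0.44 without pig 7 and -0.27 in the 6 pigs. Fast fibre markers gave 0 called of 5, all higher in low IMF, with a median log2FC of 0.16 (0.08 in the 6 pigs), and ATP2A1, the calcium pump of fast fibres, had the smallest p of them (log2FC 0.46, quasi-likelihood adjusted p = 0.367). Of 7 fibro-adipogenic markers 0 were called, with 4 higher in high IMF and 3 in low IMF. PDGFRA, the receptor that marks these progenitors, was lower in low IMF (log2FC -0.42, quasi-likelihood adjusted p = 0.441). It was at 41.9 CPM in pig 6 of the high IMF group and at 16.0 to 25.1 CPM in the other pigs. The collagen genes COL1A2 and COL3A1 were higher in low IMF (log2FC 0.37 and 0.30, quasi-likelihood adjusted p = 0.500 and 0.609). Of 5 skeletal muscle markers 0 were called. The part of these cell types in the levels of the 9 genes was not tested.

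The pathway around the 9 genes was read from 4 further lists. Of 13 lipoprotein lipase partners tested, 0 were called and 0 passed an unadjusted p of 0.05, with 7 higher in low IMF and a median log2FC of 0.05 (-0.05 without pig 4 and -0.02 in the 6 pigs). SEL1L, needed for lipase folding and export, had the smallest p, at 14.8 to 46.8 CPM in high IMF and 36.8 to 46.8 CPM in low IMF (log2FC 0.49, quasi-likelihood adjusted p = 0.544). Within high IMF, pigs 4, 5 and 6 lay at 14.8 to 20.6 CPM, and pigs 1, 2 and 3 at 40.4 to 46.8 CPM. VLDLR, the receptor for very low density lipoproteins, was at 212 ± 7.87 CPM in high IMF and 202 ± 27.4 CPM in low IMF (SD, n = 6 each), a log2FC of -0.07. LIPG, the endothelial lipase, ranged from 1.13 to 17.2 CPM within high IMF alone (log2FC -0.82, quasi-likelihood adjusted p = 0.574).

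Of 15 other lipid binding and uptake genes, 0 were called and 0 passed an unadjusted p of 0.05, with 6 higher in low IMF and a median log2FC of -0.02 (-0.14 without pig 1, 0.04 without pig 4 and 0.05 in the 6 pigs). The caveolae proteins CAV1 and CAV2 had log2FC of -0.06 and -0.27 (quasi-likelihood adjusted p = 0.931 and 0.496). FABP2, FABP9 and PMP2, the other binding proteins tested, were at or below 1.04 CPM in every pig. Of 15 other acyl-CoA synthetases and thioesterases, 0 were called and 0 passed an unadjusted p of 0.05, with 5 higher in low IMF and a median log2FC of -0.10 (-0.02 without pig 1 and 0.04 in the 6 pigs). ACSL5, a synthetase of mitochondria and endoplasmic reticulum, was at 5.77 to 13.6 CPM in high IMF and 4.30 to 6.56 CPM in low IMF (log2FC -0.39, quasi-likelihood adjusted p = 0.514). Its high IMF pigs other than pig 6 lay at 5.77 to 7.48 CPM. ACOT11, a thioesterase that removes coenzyme A again, had a log2FC of 0.72 (quasi-likelihood adjusted p = 0.543). It was at 4.67 to 21.6 CPM in high IMF. In low IMF it was at 58.9 CPM in pig 12 and at 10.7 to 30.4 CPM in the other pigs.

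The 11 PPAR regulators, namely receptors, partner receptors and cofactors, held the smallest p of all the lists, that of PPARA. Of the 11, 9 were higher in low IMF, 3 of them at an unadjusted p of 0.05 or less, against 10.4% of all genes, and their median log2FC was 0.16 (0.09 without pig 9 and 0.05 in the 6 pigs). PPARA, the receptor that drives fatty acid oxidation genes in muscle and liver, had 6.72, 7.95 and 10.4 CPM in high IMF and 10.6, 12.9 and 15.6 CPM in low IMF, so the groups did not overlap. Its log2FC was 0.63 ± 0.13 (SE), with an interval of 0.35 to 0.91 and a quasi-likelihood adjusted p of 0.199. The DESeq2 Wald test called PPARA, with a log2FC of 0.64 and adjusted p of 0.00448 over all genes with a count, while over all settings tried its log2FC ran from 0.58 to 0.70 and its adjusted p from 0.00416 to 0.998. RXRA, the partner receptor, had a log2FC of 0.92 ± 0.35 and PPARGC1A, the coactivator of mitochondrial genes, 0.92 ± 0.35 (SE, quasi-likelihood adjusted p = 0.434 for each), with overlapping groups, and these were 1.47 and 1.21 in the 6 pigs (adjusted p = 0.998 for each). PPARG, the receptor of fat cell formation, had a log2FC of -0.31 (quasi-likelihood adjusted p = 0.746), which was -0.11 without pig 6, -0.47 without pig 12 and 0.13 in the 6 pigs, so its direction was not stable.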

How the data were processed

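Muscle RNA of 12 pigs was sequenced as 100-base read pairs from a stranded mRNA kit. The deposited values were raw counts per Ensembl gene. The authors trimmed reads with Trimmomatic, aligned them to Sscrofa11.1 (HISAT2), built transcripts (StringTie) and obtained gene counts (HTSeq). The strand setting of the counting is not given in the sources used here. Counts per pig totalled 131048805 to 178013997. Their sum exceeds the filtered reads given in the study's text, so what 1 count stands for is not known here.

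Groups came from the sample labels. Counts were filtered with filterByExpr and normalised by TMM, and group was fitted as the only term in edgeR 4.0.16 (glmQLFit, glmQLFTest, R 4.3.3) over 14262 genes with Benjamini-Hochberg adjustment. Standard errors were the log2FC divided by the root of F. P-values set the difference between the groups against the spread between pigs within groups, with 6 pigs in each. Log2 CPM for correlations had a prior count of 2. Symbols came from a gene name table that matched 14857 of the 25880 identifiers, and RefSeq models were matched by symbol. The fit was also run on simulated data, and no result given here rests on the outcome of that run. DESeq2 1.42.0, limma 3.58.1, other scalings, filters and covariates and leaving out each pig were alternatives. Genes named in the text were all members, the 3 genes most like each, and some of a set picked from each list. That set held the called genes, the 2 with the smallest p and the 2 with the highest mean. Not every gene of that set is named. Other list genes (PPARG, FABP2, FABP9, PMP2 and EGFL7) were named after their values were seen. The members and lists were chosen with earlier results of these data known, and pair and marker correlations and shares of binding proteins were added after the values were seen. Upstream sequences of the genes are not reported here.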

Additional observations from a re-analysis of the deposited data

Results flagged for a closer look

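A pig standing far from the other 5 of its group was found in 4 of 72 groups tested, by Dixon's criterion, which chance meets in about 1 group in 20. LPL in high IMF pig 5 was at 182 CPM, with the others at 106 to 131 CPM. The remaining 3 were all high IMF pig 6, in genes most like FABP4, ACSL1 and ANGPTL4. CIDEC was at 6.83 CPM against 1.42 to 3.38 CPM in the others. TNIP3 was at 0.476 CPM against 0.0701 to 0.198 CPM. SGK3 was at 9.53 CPM against 3.85 to 5.73 CPM.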

How the results depend on the processing

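None of the 9 genes was called under any of 24 alternatives. The count of DEGs over all genes, 0 by the quasi-likelihood test, was 58 with the DESeq2 Wald test restricted to the genes tested here, 65 on all genes with a count, and 0 to 1 as single pigs were left out, being 1 without pig 5 or without pig 10. PPAR regulators gave 1 call, PPARA, in both DESeq2 Wald fits. Direction reversed for FABP3 (0.0076) and FABP4 (0.65) in the 6 pigs whose Y counts matched their label, chosen after the data were seen. With single pigs left out, the log2FC of FABP3 ran from -0.34 to 0.0087, that of FABP4 from -0.28 to 0.11 and that of ACSL1 from -0.15 to 0.18, and the signs changed without pig 6 for FABP3, without pigs 5, 6, 7, 9 or 10 for FABP4, and without pigs 1, 2, 7 or 12 for ACSL1. That of ANGPTL4 ran from -1.14 to -0.37, the latter without pig 6, FABP5 from 0.29 to 0.66, LPL from 0.20 to 0.40, SLC27A1 from 0.09 (without pig 7) to 0.21, SLC27A4 from 0.15 to 0.29 and ACSL3 from -0.21 to -0.02 (without pig 3). The cause of these changes was not tested. At an unadjusted p of 0.05 or less, ANGPTL4 passed without pig 3 or pig 4, LPL without pig 10, and FABP5 and LPL in the 6 pigs. The share of all genes that passed in those fits is not given here. These passes are therefore not read as a result about the 9 genes. Other scalings moved the median log2FC over all genes by less than 0.1. Slaughter day and sequencing lane were not given per pig and could not be fitted. No paired analysis was possible because the groups share no replicate number.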
